A study of Mus musculus with 27 samples.

Results

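The genes described were 10 transcription factors of fibroblasts and other mesenchymal cells, chosen by name as the rows for Twist1, Twist2, Prrx1, Prrx2, Snai1, Snai2, Zeb1, Zeb2, Osr1, and Tbx15 in a table of 54532 genes. All 10 passed the filter on low values, a mean of 0.5 FPKM (fragments scaled to gene length and library depth), and were tested with 14932 genes in all. The study converted mouse embryonic fibroblasts (MEFs) into induced neurons (iNs) with the BAM genes, a set of transduced neuronal transcription factors, and asked how loss of the clock genes Per1 and Per2 affects that conversion. Bulk RNA-seq was done on 27 libraries, 3 replicates each of 9 groups. The groups combined 3 genotypes (WT, Per1-/-, and Per2-/-) with 3 days (0, 2, and 4). All groups had received lentiviruses carrying doxycycline-inducible BAM genes on day -3, and day 0 was the day of the change to serum-free neuronal medium with doxycycline. The Per1-/- and Per2-/- cells came from the mouse strains B6.129-Per1tm1Drw/J and B6.129-Per2tm1Drw/J, and MEFs were pooled from 4 embryos per dish after the head and heart were removed. The labels call the replicates biological but do not say whether the 3 libraries of a group came from separate dishes of 1 preparation, so the p-values measure the spread between these libraries.

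Mesenchymal cells owe their identity to a small set of transcription factors that they share with the embryonic mesoderm and neural crest. The TWIST, SNAI, and ZEB families are the classical drivers of the epithelial-to-mesenchymal transition: TWIST1 and TWIST2 are basic helix-loop-helix (bHLH) proteins that pair with E proteins, and the zinc finger proteins SNAI1, SNAI2, ZEB1, and ZEB2 repress epithelial genes through E-box sequences. PRRX1 and PRRX2 are paired-type homeodomain proteins of limb and craniofacial mesenchyme, OSR1 is a zinc finger factor of the intermediate mesoderm and of connective tissue fibroblasts, and TBX15 is a T-box factor of limb and skin mesenchyme. ZEB2 also acts in the nervous system and in macrophages.

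The clearest difference between related genes was that between Twist1 and Twist2, so the sequences before their annotated starts are shown. That of Snai1 is shown beside them, since E-boxes are bound by SNAI proteins as well as by TWIST proteins. Each is the 250 bases before the start, 5′ to 3′ on the gene's strand, from RefSeq with the build GRCm38.p6. Capitals mark the letters CANNTG (an E-box, the same on both strands) and CCAAT or its reverse complement ATTGG (the CCAAT box). Both were searched on both strands, and the CCAAT box was chosen after the sequences were seen.
Twist1, chr12:33957421-33957670, plus strand: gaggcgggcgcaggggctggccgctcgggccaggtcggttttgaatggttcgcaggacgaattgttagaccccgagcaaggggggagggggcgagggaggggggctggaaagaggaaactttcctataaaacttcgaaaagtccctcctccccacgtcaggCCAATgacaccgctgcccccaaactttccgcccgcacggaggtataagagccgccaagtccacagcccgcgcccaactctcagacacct
Twist2, chr1:91801211-91801460, plus strand: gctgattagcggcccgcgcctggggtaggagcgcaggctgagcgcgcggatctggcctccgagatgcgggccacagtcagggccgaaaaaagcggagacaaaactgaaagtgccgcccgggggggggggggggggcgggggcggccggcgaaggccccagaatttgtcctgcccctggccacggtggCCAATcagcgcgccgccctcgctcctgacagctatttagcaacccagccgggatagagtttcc
Snai1, chr2:167537945-167538194, plus strand: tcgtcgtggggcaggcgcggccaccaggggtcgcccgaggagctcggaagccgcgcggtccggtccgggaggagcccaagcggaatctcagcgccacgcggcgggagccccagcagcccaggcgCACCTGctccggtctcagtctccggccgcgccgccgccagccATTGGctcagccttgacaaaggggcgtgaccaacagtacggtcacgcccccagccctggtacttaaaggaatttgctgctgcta
Of the 3, the Snai1 sequence held the letters CANNTG, once, as CACCTG at 126 to 121 bases before the start. CACCTG or CAGGTG occurred in 17.2% of 32817 promoter windows of the same length, and CANNTG in 66.2%. CCAAT lay 89 to 85 bases before the start of Twist1 and 63 to 59 bases before that of Twist2, and ATTGG lay 84 to 80 bases before that of Snai1, while 33.8% of all windows held 1 or the other. The G and C content was 62.4% for Twist1, 68.8% for Twist2, and 70.0% for Snai1, against a median of 52.4% over all windows. RefSeq windows of 6 of the 10 genes were searched, and those of Prrx1, Prrx2, and Zeb2 held no CANNTG.

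Depth was 15815013 to 24264097 fragments on genes per library, and the least counted of the 10 genes, Twist2, had 158 to 1687 fragments per library. The targeted genes were checked first. Per1 was at 3.23 to 4.96 FPKM in the 3 Per1-/- libraries and 5.44 to 6.33 FPKM in the 3 WT libraries on day 0, with log2 differences of -0.50, -0.19, and -0.21 on days 0, 2, and 4 that were not called (limma adjusted p = 0.771, 0.999, and 0.933). On day 0, Per2 was at 1.87 to 2.00 FPKM in the libraries labelled Per2-/- against 0.817 to 0.957 FPKM in WT. On day 4 it was at 2.54 to 3.30 FPKM against 1.60 to 1.97 FPKM. The log2 differences of Per2 were 1.03, 0.82, and 0.68 on days 0, 2, and 4 (limma adjusted p = 0.00114, 0.0191, and 0.223). The Per2 transcript was thus higher under the Per2-/- label than in WT, and was called on days 0 and 2 but not on day 4. In the paper, western blots of MEFs showed that each knockout lacked its own PER protein. Transcript levels do not measure protein, so they do not decide the genotype, and Per2-/- names the label throughout. The labels give the cell type as induced neurons for all days. On day 0 the median FPKM over 9 libraries was 0.615 for Map2, a dendritic protein of neurons, and on day 4 it was 9.77.

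Between days 0 and 2, Twist2 and Prrx1 fell in all 3 genotypes, and on day 4 Twist2 was 3.83- to 4.30-fold below day 0 while Zeb2 had risen in all 3. A gene was called here when limma, fitted over all tested genes, met 2 thresholds, 0.05 for the adjusted p and 0.58 for the size of the log2 fold change. From day 0 to day 2, 2 of the 10 genes were called lower in each genotype, when 19.7%, 18.8%, and 16.8% of the 14932 genes were called lower in WT, Per1-/-, and Per2-/- cells. None of the 10 was called higher, when 20.8%, 20.8%, and 18.7% of all genes were. From day 0 to day 4, 1 gene of the 10 was called lower in each genotype, against 20.9%, 20.4%, and 18.8% of all genes. The genes called higher were 3, 2, and 3 of the 10, against 22.9%, 22.6%, and 21.6% of all genes. With 10 genes, these counts do not set the group apart from the background. From day 2 to day 4 none of the 10 was called by limma in any genotype. Of all genes, 3.21%, 2.44%, and 4.06% were called in either direction. An unadjusted limma p under 0.05 was reached by 1, 1, and 3 of the 10, against 19.9% to 22.6% of all genes across the genotypes. In the same comparison of day 4 with day 0, 31.4%, 30.2%, and 30.2% of the 999 tested genes with a transcription factor family were called higher and 10.8%, 10.1%, and 10.2% lower. RNA was taken from whole cultures, in which fewer cells of a type and less RNA per cell cannot be told apart. Where FPKM were rescaled to a common sum or to total fragments, the median of all genes moved up by 0.25 to 0.41 on the log2 scale against day 0, so the changes given here are relative to the median gene. On day 2 the split of the calls depended on that scale, since rescaling to a common sum gave 3, 3, and 5 of the 10 called higher and 1 called lower in each genotype (Twist2), and rescaling to total fragments gave 3, 3, and 3 higher and 1 lower in each.

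**Figure D1:**
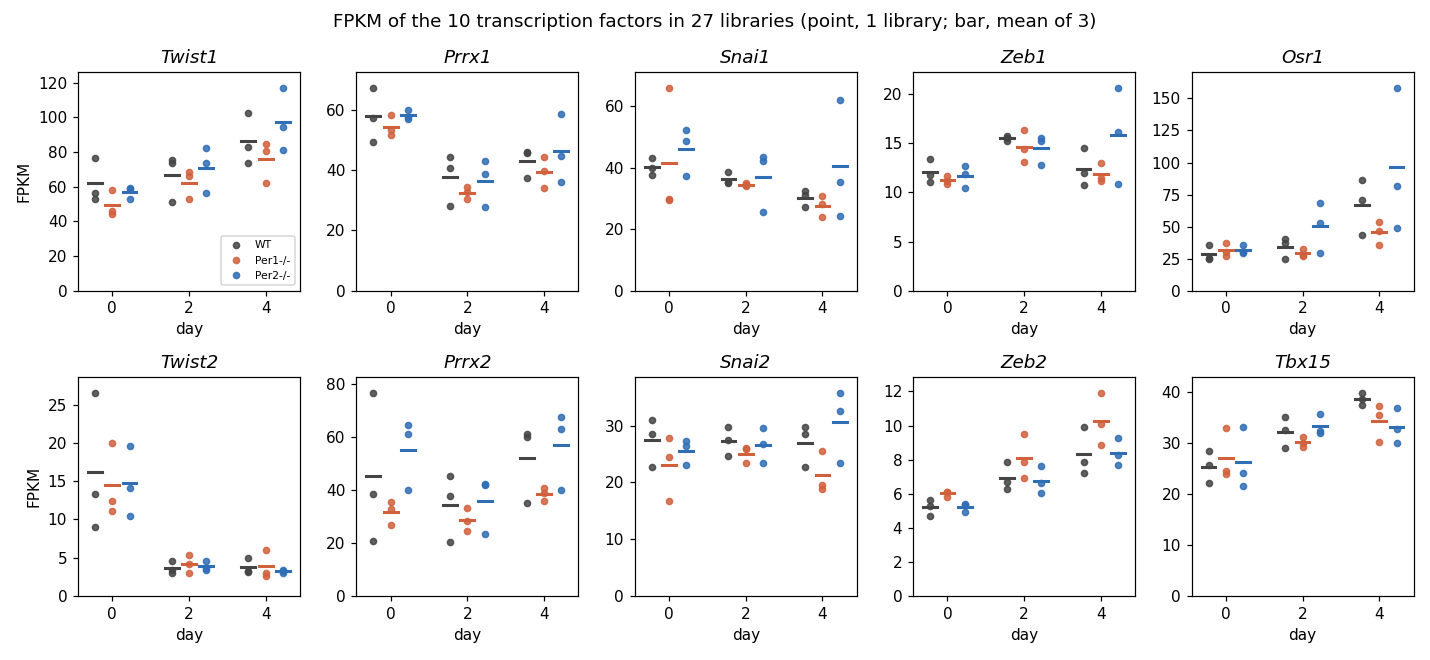
FPKM (vertical axes, linear from 0) of the 10 genes by day (horizontal axes) in WT (grey), Per1-/- (orange), and Per2-/- (blue) libraries, with 1 point per library and bars at the mean of 3. Twist2 lay at 8.98 to 26.5 FPKM on day 0 and 2.54 to 5.96 FPKM on day 4, while the libraries of the 3 genotypes overlapped for most genes on each day.

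Twist2 (chr1:91801461-91848028, plus strand, GRCm38), which encodes a bHLH factor of dermal and bone-forming mesenchyme, fell in all 3 genotypes within 2 days. In WT libraries it was at 13.3, 8.98, and 26.5 FPKM on day 0, 2.98, 3.39, and 4.61 FPKM on day 2, and 3.24, 3.07, and 4.94 FPKM on day 4. In Per1-/- libraries it was at 11.2, 12.5, and 19.99 FPKM on day 0, 3.04, 4.16, and 5.32 FPKM on day 2, and 2.54, 3.05, and 5.96 FPKM on day 4. In Per2-/- libraries it was at 10.5, 19.6, and 14.1 FPKM on day 0, 3.66, 3.43, and 4.58 FPKM on day 2, and 3.31, 3.44, and 2.99 FPKM on day 4. All 9 libraries of day 0 lay above all libraries of days 2 and 4, and days 2 and 4 overlapped in each genotype. The log2 fold change of day 2 against day 0 was -2.00 ± 0.35 (SE) in WT, -1.76 ± 0.35 in Per1-/-, and -1.86 ± 0.35 in Per2-/- cells, with limma adjusted p of 4.66e-05, 0.000194, and 0.000121. On day 4 the fold decreases from day 0 were 3.93, 3.83, and 4.30, with limma adjusted p of 4.94e-05, 6.23e-05, and 2.66e-05. By this change Twist2 stood at place 18 from the lowest of 999 tested transcription factor genes in WT, 17 in Per1-/-, and 16 in Per2-/- cells. The 2 transcripts annotated within or across Twist2 had a mean of at most 0.373 FPKM, and since the libraries were not directional, reads of its antisense neighbor could not be told apart.

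Twist1 (chr12:33957671-33959829, plus strand) encodes the closely related factor of cranial and limb mesenchyme, and its values moved the other way. In WT libraries it was at 56.3, 76.4, and 52.8 FPKM on day 0, 73.6, 75.6, and 51.0 FPKM on day 2, and 82.8, 102.4, and 73.7 FPKM on day 4. In Per1-/- libraries it was at 44.5, 58.1, and 46.1 FPKM on day 0, 52.7, 66.1, and 68.1 FPKM on day 2, and 62.0, 80.8, and 84.6 FPKM on day 4. In Per2-/- libraries it was at 58.4, 52.7, and 59.2 FPKM on day 0, 82.2, 56.1, and 73.5 FPKM on day 2, and 116.8, 81.2, and 94.4 FPKM on day 4. The day 4 libraries lay above those of day 0 in Per1-/- and Per2-/- cells and overlapped them in WT cells, where day 0 replicate 2 was high. Twist1 rose from day 0 to day 4 by 1.53-fold in Per1-/- and 1.70-fold in Per2-/- cells (limma adjusted p = 0.00816 and 0.00156). In WT cells the log2 fold change of 0.49 ± 0.19 had a limma adjusted p of 0.02995 and was under the fold change threshold. The call in Per1-/- cells was lost when day 0 replicate 1 or 3 or day 4 replicate 2 or 3 was left out, with log2 fold changes of 0.52 to 0.56, and WT cells gained one without day 0 replicate 2 or day 4 replicate 3.

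Prrx1 (chr1:163245119-163313710, minus strand), a homeobox gene of limb and craniofacial mesenchyme, fell by day 2 in all 3 genotypes, and its day 4 values lay between those of days 0 and 2 on average. On day 0 it was at 49.3, 67.3, and 57.3 FPKM in WT, 58.2, 53.3, and 51.6 FPKM in Per1-/-, and 56.8, 60.1, and 57.7 FPKM in Per2-/- libraries. On day 2 it was at 40.6, 44.2, and 28.1 FPKM, 30.3, 34.6, and 32.9 FPKM, and 43.1, 27.8, and 38.8 FPKM in the same order. On day 4 it was at 46.2, 45.7, and 37.4 FPKM, 34.1, 44.4, and 39.9 FPKM, and 58.6, 35.9, and 44.9 FPKM. The 9 libraries of day 2 lay below the 9 of day 0, and on day 4, 1 Per2-/- library was back within the day 0 range. The log2 fold change of day 2 against day 0 was -0.64 ± 0.18 in WT, -0.74 ± 0.18 in Per1-/-, and -0.69 ± 0.18 in Per2-/- cells, with limma adjusted p of 0.00458, 0.00141, and 0.00257. On day 4 it was -0.42, -0.47, and -0.35, none of which was called. Prrx1 was not called on day 2 under the 3 rescalings to a common sum or total fragments, where its log2 fold change was -0.20 to -0.45 but, less that of the median gene, -0.61 to -0.72, or, in WT cells, without day 0 replicate 2 or day 2 replicate 3, or, in Per2-/- cells, without day 2 replicate 2.

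Prrx2 (chr2:30834972-30881251, plus strand), which encodes the second PRRX protein, ranged more widely between WT replicates on day 0 than Twist1, Twist2, or Prrx1 did. WT libraries were at 38.4, 76.5, and 20.8 FPKM on day 0, 37.7, 45.3, and 20.2 FPKM on day 2, and 60.0, 61.0, and 35.0 FPKM on day 4. WT replicate 3 was the lowest WT library for Prrx2 and the highest for Twist2 on each of the 3 days. Per1-/- libraries were at 26.7 to 35.5 FPKM on day 0 and 36.0 to 40.6 FPKM on day 4, without overlap, and Per2-/- libraries were at 40.1 to 64.3 and 40.01 to 67.5 FPKM. The log2 fold change of day 4 against day 0 was 0.35, 0.29, and 0.03 in WT, Per1-/-, and Per2-/- cells, each with an SE of 0.37, and none was called. Without WT day 0 replicate 2 the log2 fold change in WT cells was 0.83 and was called (limma adjusted p = 0.0445).

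Snai1 (chr2:167538195-167542814, plus strand) and Snai2 (chr16:14705852-14709385, plus strand) encode the zinc finger repressors SNAIL and SLUG, and neither was called between any days. On day 0, Snai1 was at 37.6, 39.9, and 43.1 FPKM in WT, 65.9, 29.4, and 29.8 FPKM in Per1-/-, and 37.5, 48.6, and 52.3 FPKM in Per2-/- libraries. On day 4 it was at 32.5, 31.1, and 27.2 FPKM in WT, 28.3, 23.9, and 30.7 FPKM in Per1-/-, and 35.3, 24.4, and 62.0 FPKM in Per2-/- libraries. The WT libraries did not overlap between these days, while Per1-/- day 0 replicate 1 and Per2-/- day 4 replicate 3 each held more than 1.5 times the next highest value of their group. The log2 fold change of day 4 against day 0 was -0.41, -0.49, and -0.28 in WT, Per1-/-, and Per2-/- cells, each with an SE of 0.28, and the limma adjusted p was 0.210, 0.135, and 0.408. In Per2-/- cells its sign changed under rescaling. Snai2 had a mean of 25.4 ± 4.20 FPKM (SD, n = 9 libraries) on day 0, 26.3 ± 2.37 FPKM on day 2, and 26.3 ± 5.81 FPKM on day 4. Its log2 fold change of day 4 against day 0 was -0.02, -0.10, and 0.24, each with an SE of 0.18.

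Zeb1 (chr18:5591860-5775467, plus strand) and Zeb2 (chr2:44983632-45117395, minus strand) encode large repressors with zinc finger clusters at both ends, and Zeb2 rose by day 4 in all 3 genotypes. Zeb2 was at 5.62, 4.68, and 5.28 FPKM in WT, 5.82, 6.11, and 6.10 FPKM in Per1-/-, and 5.33, 4.90, and 5.40 FPKM in Per2-/- libraries on day 0. On day 2 it was at 6.66, 6.27, and 7.88 FPKM, 9.49, 6.94, and 7.89 FPKM, and 6.02, 7.65, and 6.62 FPKM. On day 4 it was at 7.87, 7.19, and 9.93 FPKM, 11.9, 8.85, and 10.1 FPKM, and 7.69, 9.26, and 8.25 FPKM. All 9 libraries of day 4 lay above the 9 of day 0, and those of day 2 lay above day 0 within each genotype. Zeb2 rose from day 0 to day 4 by 1.58-fold in WT, 1.69-fold in Per1-/-, and 1.60-fold in Per2-/- cells, with limma adjusted p of 0.000216, 5.50e-05, and 0.000194. The call in WT cells was lost without day 4 replicate 3, when the log2 fold change was 0.53. Zeb2os, which lies antisense to Zeb2, had means of 0.169 to 0.291 FPKM in the 3 groups of day 0 and 0.555 to 0.843 FPKM in those of day 4, and without strand information its reads and those of Zeb2 could not be told apart.

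The mean of Zeb1 was highest on day 2 in WT and Per1-/- cells and on day 4 in Per2-/- cells. The WT libraries were at 11.1, 13.4, and 11.8 FPKM on day 0, 15.6, 15.2, and 15.7 FPKM on day 2, and 14.6, 11.96, and 10.7 FPKM on day 4. Day 2 lay above day 0 without overlap in all 3 genotypes, with log2 fold changes of 0.36, 0.37, and 0.31 (SE 0.16) that were under the threshold. On day 4, Per2-/- libraries ran from 10.8 to 20.6 FPKM and the other groups from 10.7 to 14.6 FPKM. No Zeb1 call was made between any days with all libraries. Without Per2-/- day 4 replicate 2, the log2 fold change of day 4 against day 0 in Per2-/- cells was 0.65 and was called (limma adjusted p = 0.000345), against 0.40 with all libraries.

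Many markers of macrophages and neurons were higher on day 4 than on day 0, as Zeb2 was, and their part in the rise of Zeb2 was not tested. Of 18 macrophage markers, 14 were called higher on day 4 than on day 0 in WT, 17 in Per1-/-, and 10 in Per2-/- cells, and none was called lower. Their summed level was 237 to 524 FPKM in WT libraries on day 0 and 668 to 1171 FPKM on day 4. In Per1-/- libraries it was 219 to 1204 FPKM on day 0 and 1316 to 2352 FPKM on day 4. In Per2-/- libraries it was 146 to 605 FPKM on day 0, 196 to 413 FPKM on day 2, and 507 to 863 FPKM on day 4. Days 0 and 4 overlapped in Per2-/- libraries. The median sum of day 2 was below that of day 0 in Per2-/- libraries (375 against 568 FPKM). In WT and Per1-/- libraries it was above that of day 0. Of 14 tested neuron markers, 11 rose in all 3 genotypes. The others were Gap43, Ncam1, and Stmn2, with medians of 31.1, 18.1, and 9.92 FPKM on day 0 and 17.5, 12.7, and 7.405 FPKM on day 4. The summed level of the 15 neuron markers in WT libraries was 86.4 to 92.7 FPKM on day 0 and 181 to 245 FPKM on day 4. Tubb3 made up much of that rise, with a median over all genotypes of 23.5 FPKM on day 0 and 111.8 FPKM on day 4. Snap25 and Mapt passed the filter through day 4, with medians of 0.009 and 0.148 FPKM on day 0 and 1.81 and 1.51 FPKM on day 4. Elavl3, Dcx, Ina, Nefl, Syt1, Nefm, and Elavl4 also passed through later days. Their medians were at most 0.302 FPKM on day 0 and 1.61 to 7.01 FPKM on day 4. The macrophage markers Aif1 and Ptprc had medians of 0.222 and 0.368 FPKM on day 0 and 3.98 and 2.23 FPKM on day 4. Such genes could hardly be called lower, so the count of neuron markers largely reflects the filter, and that of macrophage markers does so in part. The summed level of 8 endothelial markers was 5.46 to 7.11 FPKM in WT libraries on day 0 and 7.01 to 8.87 FPKM on day 4, with Pecam1, the defining surface marker, at no more than 0.156 FPKM in any library of day 0 or day 4. Of the 4 endothelial markers tested, 1 was called higher and 1, 2, and 1 lower in WT, Per1-/-, and Per2-/- cells, with median log2 fold changes of -0.72, -0.62, and -0.30. Tek, an angiopoietin receptor gene, went from a median of 0.359 FPKM over the 9 libraries of day 0 to 4.997 FPKM on day 4, and Kdr and Flt1, which encode receptors of vascular growth factors, went from 1.90 and 2.20 FPKM to 0.547 and 1.19 FPKM. Tek thus made up a median of 6.1% of the summed endothelial level on day 0 and 58.8% on day 4.

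**Figure D2:**
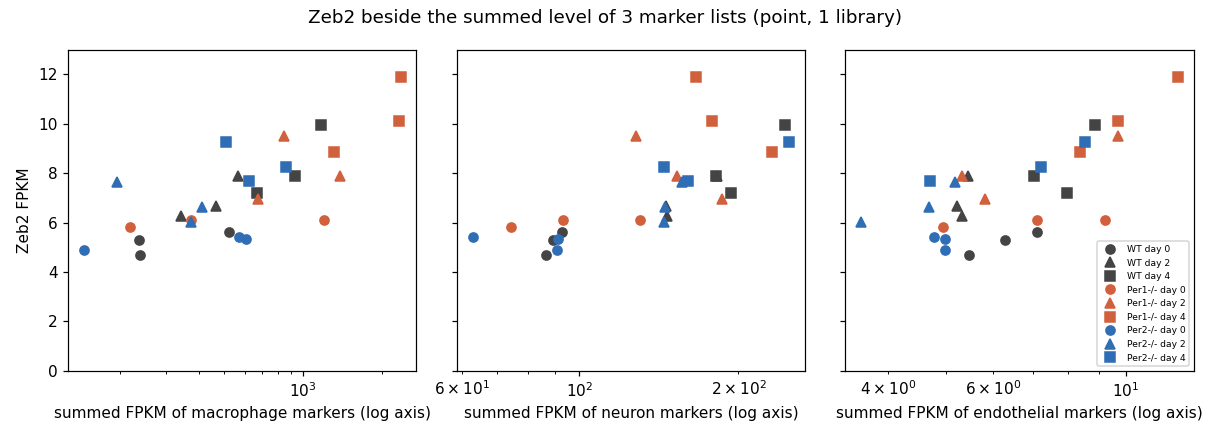
Zeb2 FPKM (vertical axis, from 0) beside the summed FPKM of macrophage, neuron, and endothelial markers (horizontal log axes), with 1 point per library, color for genotype, and circles, triangles, and squares for days 0, 2, and 4. The day 4 libraries had Zeb2 at 7.19 to 11.9 FPKM. Their macrophage sums, from 507 FPKM up, overlapped those of days 0 and 2, which reached 1204 and 1382 FPKM. Their neuron sums, from 145 FPKM up, overlapped those of day 2, which reached 186 FPKM.

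Osr1 (chr12:9570116-9581500, plus strand) and Tbx15 (chr3:99240381-99354259, plus strand) mark lateral and intermediate mesoderm derivatives and the dermal and limb mesenchyme. Osr1 was at 25.3, 35.4, and 24.8 FPKM in WT, 37.4, 26.9, and 29.9 FPKM in Per1-/-, and 30.3, 29.7, and 35.8 FPKM in Per2-/- libraries on day 0. On day 4 it was at 86.3, 71.0, and 43.3 FPKM in WT, 36.0, 54.0, and 46.9 FPKM in Per1-/-, and 158.1, 48.8, and 82.0 FPKM in Per2-/- libraries. WT and Per2-/- libraries of day 4 lay above those of day 0, and the Per1-/- libraries overlapped. Osr1 rose 2.28-fold in WT and 2.69-fold in Per2-/- cells (limma adjusted p = 0.00461 and 0.00114), and in Per1-/- cells its log2 fold change was 0.53 ± 0.34 (limma adjusted p = 0.182). The change in Per1-/- cells set against that in WT cells was -0.66 on the log2 scale with a 95% interval of -1.66 to 0.34 (limma adjusted p = 1.00), so a difference between the genotypes was not shown. Under the 3 rescalings Osr1 was called in Per1-/- cells too, with log2 fold changes of 0.79 to 0.91, which less that of the median gene were 0.54 to 0.55. Per2-/- day 4 replicate 1 held 158.1 FPKM, and without it the log2 fold change in Per2-/- cells was 0.99.

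Tbx15 was called by day 4 in WT cells alone, while its change in Per1-/- and Per2-/- cells set against that in WT cells was -0.27 and -0.26 on the log2 scale (limma adjusted p = 1.00 for both), so a difference between the genotypes was not shown. WT libraries were at 22.1, 28.4, and 25.6 FPKM on day 0, 32.5, 35.1, and 29.1 FPKM on day 2, and 38.7, 39.8, and 37.4 FPKM on day 4, without overlap between the days compared. Tbx15 rose 1.53-fold from day 0 to day 4 in WT cells (limma adjusted p = 0.000663), and its log2 fold changes of 0.35 in Per1-/- and 0.35 in Per2-/- cells were under the threshold with limma adjusted p of 0.0352 and 0.0331. On day 0, Per1-/- replicate 1 at 33.1 FPKM and Per2-/- replicate 2 at 33.2 FPKM lay above the other libraries of their groups, which were at 21.5 to 24.5 FPKM. The WT call was lost without day 0 replicate 1, when the log2 fold change was 0.52.

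**Figure D3:**
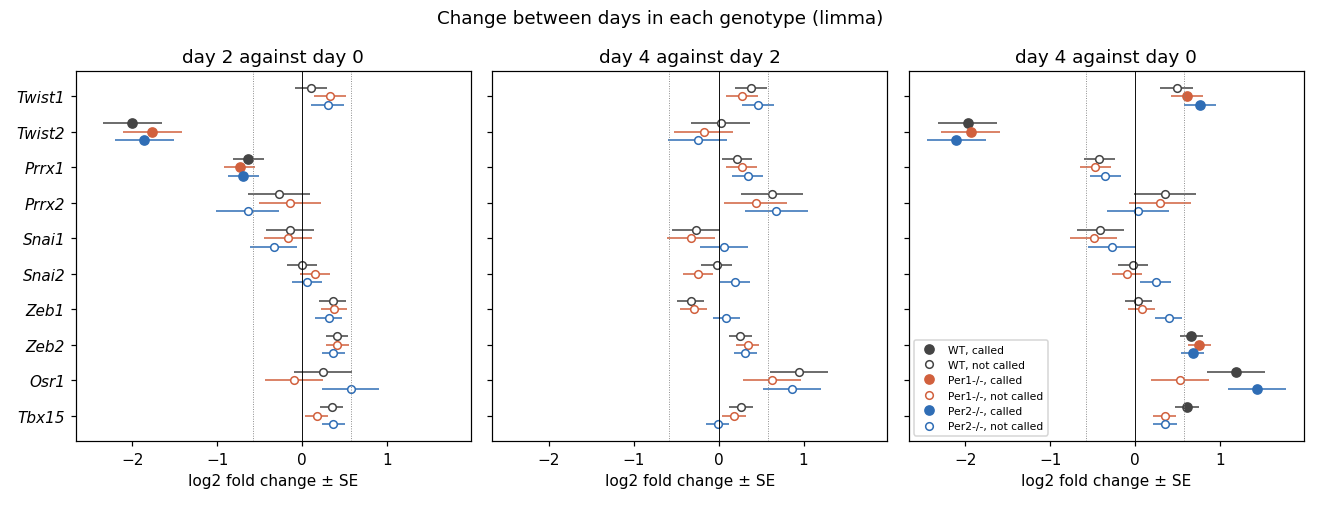
Log2 fold changes (horizontal axes) with SE of the 10 genes (vertical axis) for 3 comparisons of days in WT (grey), Per1-/- (orange), and Per2-/- (blue) cells, with filled points for genes called by limma and dotted lines at 0.58 in either direction. Twist2 lies at -1.76 to -2.11 against day 0 in all genotypes, and no point is filled for day 4 against day 2.

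None of the 10 genes was called between genotypes. For Per1-/- against WT cells, 0.0134%, 0.0067%, and 0.0268% of all genes were called by limma on days 0, 2, and 4. For Per2-/- against WT cells the shares were 0.0067%, 0.0268%, and 0.0067%, and for Per1-/- against Per2-/- cells they were 0.0201%, 0.0737%, and 0.556%. The paper used a count-based test at the same thresholds. It reported many more genes on each day that differed in Per1-/- cells from both other genotypes. The lack of calls here therefore does not show that the 10 genes were equal between genotypes. At an unadjusted p under 0.05, 1 of the 10 genes passed in Per1-/- against WT cells on day 4, and 4 did in Per1-/- against Per2-/- cells on day 4, when 6.19% and 13.2% of all genes passed. These comparisons share libraries. The 4 genes were Snai2, Osr1, Zeb1, and Zeb2, with log2 differences of -0.51, -0.93, -0.37, and 0.28, so that the first 3 had lower and Zeb2 had higher values in Per1-/- libraries. For Osr1 on day 4 the 95% interval of that difference was -1.64 to -0.22, and the limma adjusted p was 0.219. In Per1-/- against WT cells on day 4 the gene was Zeb2, with a log2 difference of 0.30 and a 95% interval of 0.02 to 0.58 (limma adjusted p = 0.764). The change from day 0 to day 4 was not called different from that in WT cells for any of the 10 genes, so a difference was not shown. Of all genes, 0.0% were called by limma for Per1-/- and 0.0% for Per2-/- cells, when 3.35% and 2.61% had an unadjusted limma p under 0.05.

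Twist2 lies 0.342 Mb from Per2 on chromosome 1. Its log2 difference between Per2-/- and WT libraries was -0.04 on day 0 (95% interval -0.77 to 0.68), 0.10 on day 2 (-0.63 to 0.82), and -0.17 on day 4 (-0.90 to 0.55). Over the same libraries the log2 difference of Per2 was 1.03, 0.82, and 0.68. On each day the interval of Twist2 holds a 1.5-fold lower level in Per2-/- libraries.

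The order of the 10 levels, compared per length in FPKM over the 9 libraries of a day, changed with time. On day 0 it was Prrx1 (56.9 ± 5.22, mean ± SD), Twist1 (56.0 ± 9.26), Prrx2 (44.0 ± 18.9), Snai1 (42.7 ± 11.6), Osr1 (30.6 ± 4.65), Tbx15 (26.3 ± 4.37), Snai2 (25.4 ± 4.20), Twist2 (15.2 ± 5.69), Zeb1 (11.7 ± 0.911), and Zeb2 (5.47 ± 0.497). Prrx1 exceeded Twist1 in 4 of 9 libraries, Prrx2 exceeded Snai1 in 5, and Tbx15 exceeded Snai2 in 3, so these neighbors did not differ beyond their spread. On day 4 the order was Twist1 (86.5 ± 16.1), Osr1 (69.6 ± 37.6), Prrx2 (49.1 ± 13.3), Prrx1 (43.0 ± 7.40), Tbx15 (35.4 ± 3.60), Snai1 (32.8 ± 11.6), Snai2 (26.3 ± 5.81), Zeb1 (13.4 ± 3.27), Zeb2 (9.004 ± 1.47), and Twist2 (3.62 ± 1.10). Zeb2, the lowest of the 10 on day 0, exceeded Twist2 in all 9 libraries of day 4.

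Ratios of related genes were compared between days 0 and 4. A ratio within a library does not depend on how libraries are scaled, apart from the 0.1 FPKM added to both values. The Twist1 to Twist2 ratio was 3.84 over the day 0 libraries and 23.7 over those of day 4 (geometric means, n = 9 each), with log2 ratios of 0.99 to 3.07 and 3.81 to 5.10 that did not overlap. The difference in log2 ratio was 2.63, with the same sign in all 3 genotypes, and is given with no test, since the pair was known to move apart.

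The ratios of the other 3 pairs fell. They were tested by two-sided exact permutation of days within genotypes, with p adjusted over the 3 pairs, and the day changes of their genes were known when they were tested. The Prrx1 to Prrx2 ratio was 1.39 on day 0 and 0.895 on day 4, and the log2 difference was -0.64 (exact permutation p = 0.00275, adjusted p = 0.006). The Zeb1 to Zeb2 ratio was 2.11 and 1.47, with a log2 difference of -0.53 (exact permutation p = 0.004, adjusted p = 0.006). The Snai1 to Snai2 ratio was 1.65 and 1.22, with a log2 difference of -0.43 (exact permutation p = 0.0293, adjusted p = 0.0293). Each of these differences had the same sign in 3 of 3 genotypes, and the libraries of the 2 days overlapped in each pair. The Snai1 to Snai2 shift passed the threshold in 11 of 18 analyses that left out 1 library, and the Prrx and Zeb pairs passed in all 18.

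**Figure D4:**
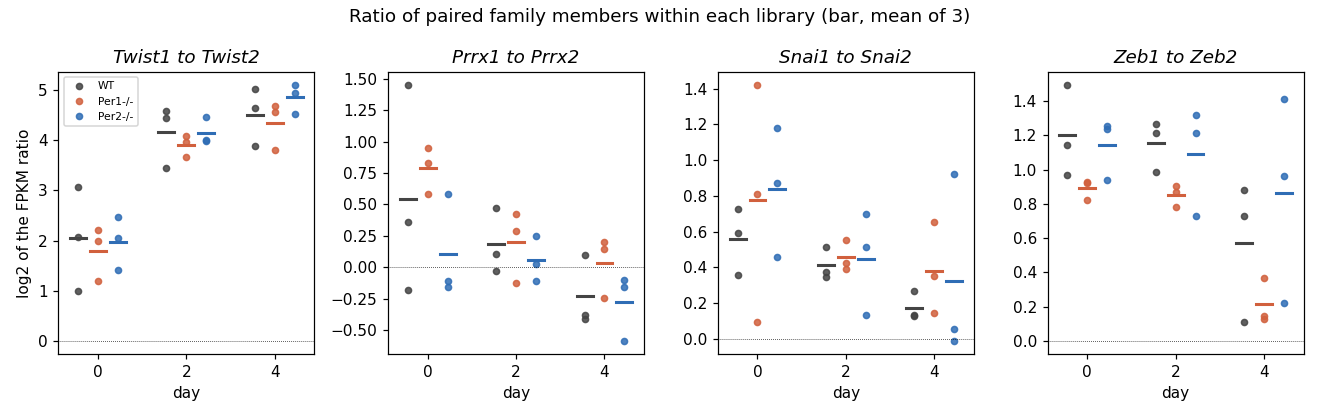
Log2 ratio of FPKM (vertical axes) within each library for 4 pairs of related genes by day (horizontal axes), with 1 point per library, bars at the mean of 3, and color for genotype. The Twist1 to Twist2 panel rises from 0.99 to 3.07 on day 0 to 3.81 to 5.10 on day 4, and a dotted line marks equal values where it is in range.

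Within groups, several of the genes were high or low in the same libraries. Each library's deviation from its group mean of log2 values was taken for the 27 libraries, which share depth and scaling across genes, and the correlations are descriptions. Pearson's r was 0.921 between Prrx1 and Osr1, 0.821 between Prrx1 and Twist1, 0.730 between Twist1 and Osr1, and 0.740 between Snai2 and Zeb1. Zeb2 went the other way, with r of -0.845 to Prrx1, -0.784 to Twist1, and -0.764 to Osr1, and its deviation had the opposite sign to that of Prrx1 in 26 of 27 libraries. Twist2 and Prrx2 were opposite in sign in 23 of 27 libraries, with r of -0.700. Summed macrophage markers had r of 0.306 to Zeb2 and -0.755 to Tbx15, and summed neuron markers had 0.079 to Zeb2 and -0.701 to Snai1. Summed endothelial markers, of which Tek made up a median of 58.8% on day 4, had 0.686 to Zeb2, -0.729 to Osr1, and -0.669 to Prrx1. Per2-/- day 4 replicate 1, with the highest Twist1, Zeb1, and Osr1 of all libraries, bears on these values.

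**Figure D5:**
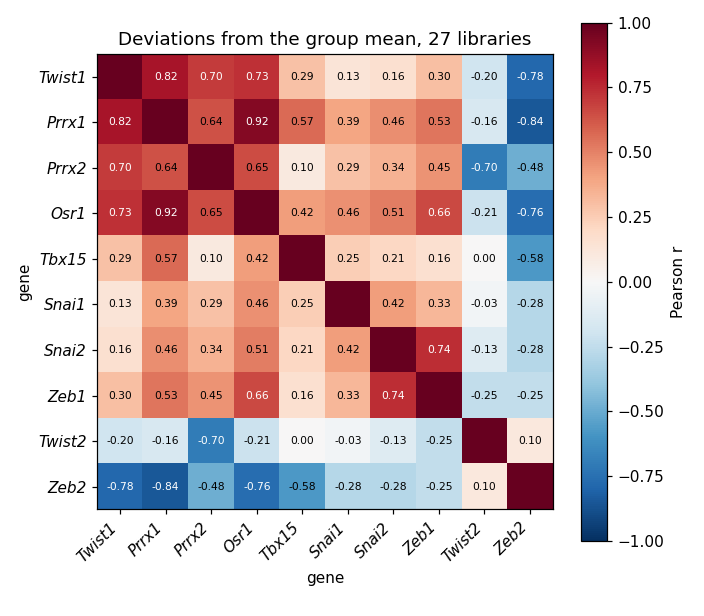
Pearson's r (color and printed value) between each pair of the 10 genes (both axes), over deviations of log2 values from group means in 27 libraries. Twist1, Prrx1, Prrx2, and Osr1 form a block of positive values, and Zeb2 is negative to all genes but Twist2.

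Some genes for partners and cofactors of these proteins changed with the day. Over all tested genes, 17.6% were called higher and 15.6% lower on day 4 than on day 0 in each of the 3 genotypes, and the counts of list members called in all 3 genotypes stand beside these shares. Of 7 E protein and ID protein genes, 2 rose in all 3 genotypes from day 0 to day 4 and none fell. They were Id2, whose product blocks bHLH partners, by 2.88-, 2.75-, and 2.03-fold in WT, Per1-/-, and Per2-/- cells, and Tcf4, which encodes an E protein, by 1.76-, 2.05-, and 1.79-fold. Within WT, Per1-/-, and Per2-/- cells, 3, 2, and 2 of the 7 were called higher on day 4 and 4, 5, and 4 on day 2. The median log2 fold change of the 7 on day 4 was 0.35, 0.43, and 0.35, against -0.02 in WT cells and within 0.01 of 0 in the others for all genes. Of 10 genes for corepressors that SNAI and ZEB proteins recruit, 2 fell in all 3 genotypes and none rose in all 3, and 2, 3, and 2 fell in WT, Per1-/-, and Per2-/- cells. Those called in all 3 were Ajuba, which encodes a LIM-domain protein, with log2 fold changes of -1.07, -0.94, and -0.83, and Ctbp2, which encodes a corepressor of ZEB proteins, with -0.77, -0.78, and -0.73. Limma adjusted p of these 12 changes was at most 0.000448.

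Of 24 epithelial genes that SNAI and ZEB proteins are known to repress, 16 were too low to be tested, and 7 of the other 8 fell in all 3 genotypes. The filter took the mean over all days, and Cldn4, Krt7, Esrp2, and Dsp passed it through day 0. Their medians were 4.20, 3.83, 1.46, and 1.25 FPKM on day 0 and 0.024, 0.153, 0.113, and 0.203 FPKM on day 4. Such genes could hardly be called higher, so the count and the median of the 8 partly reflect the filter. Cdh1, the classical E-cadherin target, had a median of 0.065 FPKM over the 9 libraries of day 0 and 0.078 FPKM over those of day 4. Keratin genes were above that on day 0, with Krt18 at a median of 12.5 FPKM, and it fell with log2 fold changes of -4.14, -4.63, and -3.04 in WT, Per1-/-, and Per2-/- cells. Krt19 fell with -4.46, -3.97, and -3.95, Krt7 with -4.67, -3.28, and -3.67, and Cldn4, a tight junction gene, with -5.46, -4.27, and -4.31. The limma adjusted p of these was at most 9.04e-05. The median of the 8 was -3.66, -3.03, and -2.83.

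Effector genes of mesenchymal cells moved both ways. Of 24, 7 rose and 11 fell in all 3 genotypes between days 0 and 4. Those that fell included Ctgf, a matrix-associated growth factor, Tnc, which encodes tenascin C, and Acta2, the smooth muscle actin of activated fibroblasts, with log2 fold changes in WT cells of -3.81, -3.68, and -3.46 (limma adjusted p at most 4.46e-07). Those that rose included Col3a1, Postn, and Mmp2. Of 15 fibroblast markers, 9 rose and 3 fell in all 3 genotypes. The matrix genes Lum, Dcn, and Dpt and the surface marker Pi16 rose, by 5.79, 3.93, 3.52, and 4.27 on the log2 scale in WT cells (limma adjusted p at most 4.34e-05), and Thy1, Fbln2, and Ly6a fell. Pi16 passed the filter through days 2 and 4, with medians of 0.053, 0.959, and 2.685 FPKM on days 0, 2, and 4. It could therefore hardly be called lower. The summed level of the 15 fibroblast markers was 2667 to 3008 FPKM in WT libraries of day 0 and 3893 to 5231 FPKM in those of day 4.

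Among 42 other tested transcription factor genes of connective tissue, 6 rose and 9 fell in all 3 genotypes. Osr2, the paralog of Osr1, rose with log2 fold changes of 4.14, 4.07, and 3.60, and the homeobox genes Meox1 (4.42, 3.54, and 3.71) and Meox2 (3.39, 2.85, and 3.47) rose as well. Foxs1, a forkhead gene of perivascular cells, fell with log2 fold changes of -1.92, -2.19, and -2.65 (limma adjusted p at most 0.00120). The median of the 42 was 0.29 in WT, 0.01 in Per1-/-, and 0.12 in Per2-/- cells. Of 6 tested muscle markers, 3 rose and 1 fell in all 3 genotypes, and of 4 tested endothelial markers, 1 rose (Tek) and 1 fell (Kdr).

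The genes whose log2 values were most like those of each factor over the 27 libraries were found by Pearson's r. For Twist2 they were Gsto1 (0.957), Thy1 (0.955), and Adora2b (0.955), for Prrx1 Ltbp1 (0.937), Emp2 (0.936), and Lmna (0.934), and for Zeb2 Trim30a (0.949), Zim1 (0.944), and Tmem8 (0.942). For Twist1 they were Tmem200b (0.908), Rnd3 (0.895), and Plce1 (0.887), and for Osr1 Gpsm2 (0.919), Scube3 (0.892), and Trabd2b (0.889). For Tbx15 they were Trim35 (0.898), Aldh1l2 (0.868), and Vhl (0.865), and for Prrx2 Nrp2 (0.833), Penk (0.829), and Glis3 (0.826). The closest genes to Zeb1, Snai1, and Snai2 had lower r, with Acsf2 (0.817), Atf7ip (0.760), and Chpt1 (0.759), Tob1 (0.796), Cxcl5 (0.779), and Taf1 (0.775), and Fech (0.735), Tmc6 (0.706), and Tmem53 (0.704). The genes that changed most between days shared that change with many others, and these r values carry it.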

How the data were processed

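Total RNA of 27 libraries was sequenced as poly-A selected, nondirectional paired-end reads. The authors aligned reads to GRCm38 with HISAT2 2.0.5, counted them on genes with featureCounts 1.5.0-p3, and deposited FPKM, which already carried a size factor per library. Solving each deposited value for fragments with the deposited gene length gave whole numbers, within 0.01, for 100% of values in each library.

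Here log2(FPKM + 0.1) was used, and genes whose mean over the 27 libraries reached 0.5 FPKM (14932) were tested with limma 3.58.1 in R 4.3.3 (mean-variance trend, 9 groups, Benjamini-Hochberg adjustment over all tested genes per comparison, two-sided). Fold changes are on the log2(FPKM + 0.1) scale, which understates changes of low genes. The design was tested on simulated data. Ratios of paired genes were tested by exact permutation of days within genotypes, two-sided. An exact permutation test of 3 libraries against 3 cannot go below p = 0.1. Promoter windows came from RefSeq. Alternatives were other pseudocounts, filters, scalings, a replicate block, voom weights on recovered fragments, and leaving out each library.

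The 10 genes and the gene lists were chosen with earlier results of these data known. All 10 genes are named. From each list, counts are given and up to 4 genes are named, those with the largest mean log2 fold change in size among genes called the same way in all 3 genotypes between days 0 and 4, and marker genes where a level was needed. Col3a1, Postn, Mmp2, Thy1, Fbln2, and Ly6a were named after their values were seen. Some genes that this rule would name are not reported here.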

Additional observations from a re-analysis of the deposited data

How the results depend on the processing

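The Twist2 decrease was called in all 3 genotypes on days 2 and 4 under all 12 settings that kept every library, with log2 fold changes of -1.37 to -2.14, and in each analysis that left out 1 library. Zeb2 on day 4 was called under the same 12 settings. No call of the 10 genes reversed its sign. Depth did not limit these genes, since the lowest had 158 fragments.

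With no minimum fold change, 4, 4, and 4 of the 10 genes were called on day 2 against day 0 in WT, Per1-/-, and Per2-/- cells, against 2 each, and 5 in Per1-/- cells on day 4, against 3. FPKM rescaled to a common sum gave 4, 4, and 6 on day 2, of which 3, 3, and 5 were higher and 1 lower, and 5 in Per1-/- cells on day 4. The scalings chosen after seeing the data, to a common sum of genes of at least 200 bases and to total fragments, gave 4, 4, and 6 and 4, 4, and 4 on day 2, and 5 and 5 in Per1-/- cells on day 4. The rescalings raised the log2 fold change of the median gene, so genes near the threshold crossed it upward and Prrx1 dropped out.

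Leaving out 1 library gave 1 to 2 genes for WT cells on day 2 against day 0 (1 without day 0 replicate 2 or day 2 replicate 3), 0 to 1 for Per2-/- cells on day 4 against day 2 (Osr1, without day 4 replicate 2), and 0 to 1 for Per1-/- against Per2-/- cells on day 4 (Zeb1, log2 difference -0.62, without Per2-/- day 4 replicate 2). The Snai1 to Snai2 log2 difference ranged from -0.55 to -0.32 with exact permutation p of at most 0.067. It lost the threshold in 7 of 18 such analyses, without Per1-/- day 0 replicate 1, Per2-/- day 0 replicate 2 or 3, or replicate 1 or 2 of day 4 in Per1-/- or Per2-/- cells. The cause was not tested.

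Replicate numbers were not taken to pair the libraries. Deviations from group means of same-numbered libraries of 1 genotype on different days had r of -0.017 to 0.294, over 0.1 in 14 of 27 pairs, although 26 of 27 libraries correlated best with their own number, a hint from the data and not the design. With the replicate block, 2 genes rather than 0 were called on day 4 against day 2 in WT and 2 in Per2-/- cells, in both Osr1 (log2 fold change 0.95 and 0.86) and Prrx2 (0.63 and 0.68). On day 2 against day 0 in Per2-/- cells, Prrx2 (-0.64, limma adjusted p = 0.00131) made 3 called lower rather than 2. The paired exact permutation p of the Prrx, Snai, and Zeb ratios was 0.00781, 0.0313, and 0.0234.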
